A study of Mus musculus with 4 samples.

Results

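A set of 7 genes of the interferon gamma pathway was examined in Visium sections of MC38 tumors: the ligand gene Ifng, the receptor genes Ifngr1 and Ifngr2, the kinase genes Jak1 and Jak2, the transcription factor gene Irf1 and the feedback gene Socs1. They were taken by symbol, and the 7 symbols matched 7 of the 32285 genes in the count matrices, each with UMIs in all 4 sections. MC38 cells derive from a colon carcinoma of the C57BL/6 mouse. Here 500000 cells per animal had been injected subcutaneously, into female F1 hosts between 8 and 12 weeks of age. Sections 1 and 2 of CC075F1 came from offspring of C57BL/6J and CC075/UncJ, which the study classes as responders to anti-PD-1, and sections 1 and 2 of CC080F1 from offspring of C57BL/6J and CC080/TauUncJ, classed as non-responders. CC075/UncJ and CC080/TauUncJ are inbred Collaborative Cross lines, so all hosts shared 1 C57BL/6J parent. Every mouse had received 1 intraperitoneal dose of 200 µg of the isotype control antibody 2A3 at a tumor size of 75 to 110 mm3 and was killed 48 hours later, and no anti-PD-1 treated section was analysed here. The comparison therefore asks how the pathway stood in the 2 strains without checkpoint blockade. With 2 sections per strain from 1 responder and 1 non-responder strain, strain and response class cannot be told apart.

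IFN-γ is secreted mainly by activated T cells and NK cells and binds a receptor built of IFNGR1 and IFNGR2, which most cells carry. JAK1 sits on IFNGR1 and JAK2 on IFNGR2, and the activated kinases pass the signal to the nucleus, where GAS elements switch on Irf1 among the first targets. IRF1 then acts through ISRE-type elements on further genes, Socs1 among them, and SOCS1 blocks the JAK kinases and so closes the loop.

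The GENCODE annotation of mouse build GRCm38 places Ifng at chr10:118441046-118445892 and Ifngr1 at chr10:19591949-19610229, both on the plus strand. Ifngr2 lies at chr16:91547072-91565623 on the plus strand and Socs1 at chr16:10782240-10785536 on the minus strand. Jak1 lies at chr4:101152367-101265282 on the minus strand, Jak2 at chr19:29251828-29313080 on the plus strand and Irf1 at chr11:53770014-53778374 on the plus strand. All 7 are annotated as protein coding. Irf1 and Socs1, the pair with the highest mean correlation across spots, are shown with the 200 bases before their RefSeq starts (GRCm38.p6), written 5′ to 3′ on the strand of the gene, because each window holds one of the 2 element types named above. Capitals mark the matches: the GAS pattern TTCNNNGAA in Irf1 (chr11:53769814-53770013, plus strand) and 2 overlapping matches of the ISRE core pattern GAAANNGAAA in Socs1 (chr16:10785537-10785736, minus strand).
Irf1: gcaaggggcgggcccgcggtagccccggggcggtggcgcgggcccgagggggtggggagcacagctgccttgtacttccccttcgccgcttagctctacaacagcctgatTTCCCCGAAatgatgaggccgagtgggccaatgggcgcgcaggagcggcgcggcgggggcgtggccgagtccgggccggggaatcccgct
Socs1: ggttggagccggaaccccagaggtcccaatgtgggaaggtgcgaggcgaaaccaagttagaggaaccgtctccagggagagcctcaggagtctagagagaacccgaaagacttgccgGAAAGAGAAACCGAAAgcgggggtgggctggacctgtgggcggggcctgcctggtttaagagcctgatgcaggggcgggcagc
The Irf1 match, TTCCCCGAA, began at position -90 from the start, and the Socs1 run began at position -83. Both strands of the RefSeq promoter table were searched, from 250 bases before to 50 after each start. The GAS pattern was in 8.30% of 32851 promoters and the ISRE core in 3.44%. These shares are per promoter, whereas a member or induced gene was counted if any of its starts had a match. Of the 7 members, 2 had the GAS pattern (Irf1, and Ifng with TTCAGAGAA at position -249) and 1, Socs1, had the ISRE core. The table holds a second Irf1 start, which had no match, and the windows of Ifngr1, Ifngr2, Jak1 and Jak2 held neither pattern. Among 19 IFN-γ-induced genes with a promoter in the table, 6 had the GAS pattern and 9 the ISRE core. A match describes the letters of a window and is not evidence of binding.

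The sections held 2710 and 3276 spots in CC075F1 against 2787 and 3174 in CC080F1, with 82594649 to 146460975 UMIs each and a median of 31139 to 41740 UMIs per spot. A spot is a small region that can hold several cells. Of the MC38 or epithelial markers, Shisal2b, which the study uses for MC38 cells, stood at 105 to 339 CPM (UMIs per 1000000 UMIs of the section, here after TMM scaling), while Epcam, Krt8 and Krt18 did not exceed 0.358. CC075F1 section 2 stood apart: it was the deepest, its TMM factor was 0.745 against 1.07 to 1.16 in the others, and its haemoglobin and skeletal muscle genes summed to 386 and 109 CPM by library size against at most 157 and 11.3 elsewhere. Scaling by library size alone shifted the median strain difference of all genes from -0.019 to -0.31 (log2), so differences are given on TMM-scaled CPM and the change under library size is stated where it alters an order or a sign of a member or of a gene named from the pathway lists. All 4 sections shared 1666 spot barcodes, as slides carry a common barcode set, and replicate sections of a strain differed by far more than sampling noise.

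In the comparison of strains, the ligand was the member with the widest gap. Ifng stood at 2.38 and 3.07 CPM in the CC075F1 sections and at 0.422 and 0.882 in the CC080F1 sections, from 212, 335, 46 and 106 UMIs. The strains did not overlap, and the gap between them exceeded the gap within either. The fitted log2 difference was 2.06 (SE 0.46), with an adjusted p of 0.348 in edgeR's quasi-likelihood test over 15572 genes, so Ifng was not called at an adjusted p of 0.05. DESeq2 called it, with an adjusted p of 0.00213, and limma-voom did not. Over 13 alternative settings the difference ran from 1.63 to 2.70 and the adjusted p from 0.000271 to 0.612, and 4 of the 13 called it. One of the 4 left out CC080F1 section 2 (difference 2.70, adjusted p = 0.0172), which has the higher Ifng level of that strain.

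No member was called by edgeR, where 14 of the 15572 genes (0.0899%) were called and 846 had p under 0.05. Ifng was the only member with p under 0.05. DESeq2 called 1 member of the 7, again Ifng, among 194 genes, and limma-voom called none among 11. Without CC080F1 section 1 edgeR called 138 genes, and without CC080F1 section 2 it called 207. In bulk sums of this kind, fewer cells expressing a gene and less RNA of it per cell cannot be told apart.

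The share of spots with at least 1 Ifng UMI was 7.01% (190 of 2709 spots with UMIs, 95% exact interval 6.08 to 8.04) and 7.94% (7.03 to 8.92) in CC075F1. It was 1.47% (1.06 to 1.99) and 2.68% (2.14 to 3.30) in CC080F1. The intervals of the strains did not overlap, and the strain means were 7.48% ± 0.653 and 2.07% ± 0.853 (SD, n = 2 each), a ratio of 3.60. The exact two-sided permutation p was 0.3333, the smallest that 2 sections against 2 allow. Most of these spots held a single Ifng UMI: 173 of 190 and 221 of 260 in CC075F1, and 36 of 41 and 74 of 85 in CC080F1. At most 8 UMIs fell in any spot. With every spot thinned to 10000 UMIs the shares were 2.59% and 1.95% in CC075F1 against 0.366% and 0.808% in CC080F1, a ratio of 3.87, with the same order of sections by strain.

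T cell markers moved with Ifng between strains. On CPM by library size, as used for all marker sums, the 7 T cell markers summed to 57.3 and 45.3 in CC075F1 against 16.4 and 13.6 in CC080F1, and 6 of the 7 were higher in both CC075F1 sections. One of the 7 was called: Cd3g, a chain of the T cell receptor complex, rose to 11.2 and 15.2 CPM from 2.77 and 2.17 (log2 difference 2.42, SE 0.27, edgeR adjusted p = 0.0491). DESeq2 called 6 of the 7 and limma-voom none, and edgeR called none without CC075F1 section 1, without CC075F1 section 2, under library size alone, with DESeq2 size factors or with thinned spots. Ifng UMIs per 100 T cell marker UMIs were 4.48 and 5.04 in CC075F1 against 2.99 and 6.92 in CC080F1. Set against T cell markers, then, the strains overlapped (4.76 ± 0.400 and 4.96 ± 2.78, SD, n = 2, exact permutation p = 1). The 8 NK and cytotoxic markers summed to 41.7 and 62.4 CPM in CC075F1 against 13.3 and 67.5 in CC080F1, and Ifng per 100 of their UMIs was 6.15 and 3.67 against 3.69 and 1.39 (exact permutation p = 0.667).

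**Figure D1:**
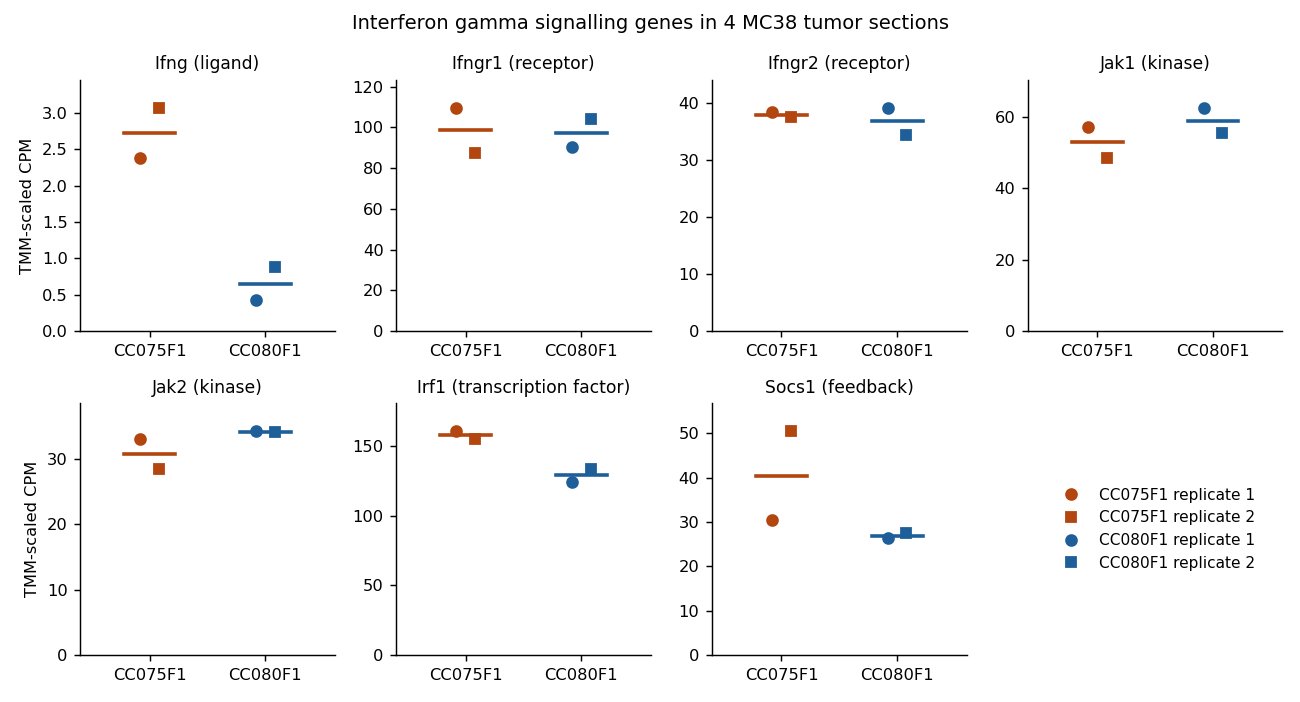
TMM-scaled CPM of the 7 members in each section (points: circle, section 1; square, section 2) with the strain mean (bar), one panel per gene on a linear axis from 0. Ifng, Irf1 and Socs1 lie higher in both CC075F1 sections, Jak2 lies lower in both, and the other 3 genes overlap.

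The sections of the 2 strains overlapped for both receptor genes. Ifngr1, the ligand-binding chain, was at 109.7 and 87.3 CPM in CC075F1 against 90.4 and 104 in CC080F1. Its log2 difference was 0.019 (SE 0.22, edgeR adjusted p = 0.989). Ifngr2, the chain that brings JAK2 into the complex, was at 38.3 and 37.5 against 39.1 and 34.4 CPM, a log2 difference of 0.044 (SE 0.18, adjusted p = 0.963). Under library size alone the differences turned to -0.24 and -0.25. Ifngr1 was seen in 90.7% and 89.8% of spots in CC075F1 against 93.7% and 92.0% in CC080F1, and Ifngr2 in 67.3% and 68.8% against 75.2% and 67.4%. Receptor RNA was thus found in most spots of every section, against the few spots with ligand RNA.

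Neither kinase gene passed the test, and the fitted difference of both was below 0. Jak1 stood at 57.1 and 48.4 CPM in CC075F1 against 62.5 and 55.3 in CC080F1 (log2 difference -0.16, SE 0.19, adjusted p = 0.863). Jak2 stood at 33.1 and 28.4 CPM against 34.2 and 34.1 (-0.15, SE 0.18, adjusted p = 0.863). Jak2 was lower in both CC075F1 sections and Jak1 overlapped. At full depth the shares of spots were 78.0% and 75.1% against 87.5% and 81.2% for Jak1 and 63.5% and 58.5% against 71.7% and 68.0% for Jak2, each with an exact permutation p of 0.3333. At 10000 UMIs per spot the Jak1 shares overlapped, at 45.6% and 31.9% against 52.0% and 44.1% (exact permutation p = 0.667), as they did at 20000. At 5000 UMIs they were lower in both CC075F1 sections, at 25.2% and 17.4% against 30.9% and 25.8%. The Jak2 shares at 10000 UMIs were 29.7% and 19.3% against 32.1% and 30.8%, lower in both CC075F1 sections as at 5000 and 20000. Over the 13 alternatives the differences ran from -0.43 to -0.033 for Jak1 and from -0.42 to -0.035 for Jak2, with none called.

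Irf1, the transcription factor induced early by IFN-γ, was at 160.5 and 155 CPM in CC075F1 against 124 and 134 in CC080F1, with means of 158 ± 3.94 and 129 ± 6.80 (SD, n = 2). The CC075F1 sections were the higher pair, but the difference of 0.29 (log2, SE 0.21) was not called (adjusted p = 0.831). Under library size alone the order was lost: 173 and 115 against 145 and 143 CPM, a log2 difference of 0.0065. Irf1 was found in 96.7% and 96.2% of spots in CC075F1 against 97.0% and 95.7% in CC080F1, so nearly every spot of either strain had it.

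Socs1, the inhibitor of JAK kinases, was at 30.4 and 50.4 CPM in CC075F1 against 26.3 and 27.5 in CC080F1. Both CC075F1 sections were above both of CC080F1, also under library size alone, yet CC075F1 section 1 lay much nearer to CC080F1 than to its own replicate. The log2 difference was 0.59 (SE 0.26), with an adjusted p of 0.830 in edgeR. It ran from 0.19 to 0.91 over the 13 alternatives, the lowest value without CC075F1 section 2, and none called it. Socs1 was seen in 59.3% and 71.9% of spots against 61.4% and 57.8%, which overlapped. At 10000 UMIs per spot the shares were 27.9% and 30.4% against 26.1% and 23.9%, and both CC075F1 sections were the higher pair at 5000, 10000 and 20000 UMIs (exact permutation p = 0.3333 at each, the smallest possible).

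Counted together, 3 of the 7 members (Ifng, Irf1 and Socs1) were higher in both CC075F1 sections, where 16.2% of all genes were. One of the 7, Jak2, was lower in both, where 18.3% of all genes were. Under library size alone the counts were 2 of 7 and 1 of 7, against 6.63% and 30.3% of all genes.

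The rest of the pathway was read from the same test. Of the other interferon receptor and JAK genes, 5 were tested and none was called by edgeR, DESeq2 or limma-voom, with none at p under 0.05 and a median log2 difference of 0.065. Ifnar2, a chain of the type I interferon receptor, was higher in both CC075F1 sections (41.8 and 61.3 against 36.4 and 39.5 CPM, 0.44, SE 0.22, adjusted p = 0.830), whereas its partner Ifnar1 differed by -0.43 with overlapping sections. Il10rb, shared by the IL-10 and type III interferon receptors, differed by 0.14, with a lower CC075F1 mean under library size alone (44.9 and 34.7 against 44.1 and 45.1 CPM). Stat3 and Stat6, which carry IL-6 and IL-4 signals, differed by -0.044 and -0.15 and were not called; under library size alone Stat6 was lower in both CC075F1 sections.

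Of the other interferon regulatory factors, 7 were tested and none called by any of the 3 tools, with 1 at p under 0.05. That gene was Irf5, a factor of myeloid cells (52.2 and 52.4 against 34.3 and 41.8 CPM, 0.46, adjusted p = 0.830), and its sections overlapped under library size alone (56.3 and 39.0 against 40.0 and 44.6). Irf7, central to the type I interferon response, went the other way at 31.8 and 49.5 against 41.4 and 70.4 CPM (-0.46), with overlapping sections that separated under library size alone. Irf3 differed by -0.13. Of 16 SOCS and other feedback genes none was called by any of the 3 tools and 1 had p under 0.05: Ptpn6, the phosphatase SHP-1 of blood cells (67.0 and 68.0 against 40.1 and 52.0 CPM, 0.55, SE 0.20, adjusted p = 0.800). The Ptpn6 sections overlapped under library size alone (72.4 and 50.6 against 46.8 and 55.5). The phosphatases Ptpn11 and Ptpn2 differed by -0.37 and 0.17, and Ptpn2 had the lower CC075F1 mean under library size alone (36.4 and 32.9 against 41.0 and 36.2). For the 3 lists of receptors and JAK genes, interferon regulatory factors and feedback genes the median differences lay between -0.053 and 0.10, beside -0.019 for all genes tested.

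The genes that IFN-γ induces stood further apart. All 26 tested had a higher CC075F1 mean and 22 were higher in both CC075F1 sections, with a median log2 difference of 0.69. Of all 15572 genes, 7407 had a higher CC075F1 mean and 16.2% were higher in both. Under library size alone 24 of the 26 had a higher mean, 12 were higher in both and 1 was lower in both, with a median of 0.39 against -0.31 for all genes. Under that scaling 3286 of all genes had a higher mean, 6.63% were higher in both and 30.3% lower in both. One gene was called: Ido1, which starts tryptophan breakdown, rose to 4.81 and 5.72 CPM from 0.275 and 0.300 (log2 difference 4.19, SE 0.35, edgeR adjusted p = 0.0181). Of the 26, 12 had p under 0.05, and DESeq2 called 5 and limma-voom 1. Ido1 was called under each of the 13 alternatives. Cxcl9, a T cell attracting chemokine that the study mapped in these same sections, was at 291 and 405 against 42.4 and 111 CPM (2.18, SE 0.47, adjusted p = 0.332). Over the 13 alternatives its difference ran from 1.65 without CC080F1 section 1 to 3.05 without CC080F1 section 2, and 5 of the 13 called it, with an adjusted p down to 5.06e-09 in edgeR without the filter on low counts. Gbp2, a guanylate-binding protein gene, was at 269 and 285 against 119 and 227 CPM (0.68, adjusted p = 0.830). Its difference was 0.29 without CC080F1 section 1 and 1.23 without CC080F1 section 2, none of the 13 alternatives called it, and its sections overlapped under library size alone (291 and 212 against 139 and 242). B2m, H2-K1 and H2-D1, which encode MHC class I, differed by 0.77, 0.80 and 0.59, none called. Reads of H2-K1 and H2-D1 can be shared with near-identical class I genes. The spatial reads were mapped to mm10, without the founder-specific transcriptomes that the study used for its bulk RNA. Effects of host alleles in the MHC region on the counts of genes in this list were not tested.

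Markers of other cell types separated by strain as well. Of 6 macrophage markers 4 were higher in both CC075F1 sections (median log2 difference 0.34), and 2 were under library size alone. Of 5 dendritic cell markers 3 were higher in both and 2 lower in both, with a median of 1.52. All 4 adipocyte markers were lower in both, with a median of -2.62. None of these 15 was called by edgeR or limma-voom, with 7 at p under 0.05 in edgeR, and DESeq2 called Lyz2, Batf3 and Cfd, 1 of each list. The part of these cell types and of T cells in the differences of the members and of the induced genes was not tested.

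Of 15 genes that drive Ifng expression, none was called by edgeR and 3 had p under 0.05, and 7 were higher in both CC075F1 sections, where 16.2% of all genes were. Under library size alone 3 were higher in both and 2 lower in both, against 6.63% and 30.3% of all genes. Ebi3, a subunit of IL-27, was the 1 that DESeq2 called, and it stood at 8.84 and 11.0 against 4.55 and 5.38 CPM (1.00, SE 0.24, edgeR adjusted p = 0.396). Limma-voom called none. Il15ra, Il15 and Il12rb1, parts of the IL-15 and IL-12 systems, differed by 0.28, 0.43 and 0.62. Il15ra was lower in both CC075F1 sections under library size alone (29.3 and 29.3 against 31.3 and 29.6 CPM), where the sections overlapped for Il15 and Il12rb1. The median of the list was 0.41 and was 0.067 under library size alone.

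Spots were then compared within sections, to see where the members lay relative to the ligand. Spots with an Ifng UMI were set against spots of the same depth without one, within 10 strata of spot depth. Levels within sections are CPM by library size, and 4 values in a row are in the order CC075F1 section 1, CC075F1 section 2, CC080F1 section 1 and CC080F1 section 2. Spots with Ifng were somewhat deeper, with medians of 33102, 43710, 34096 and 40241 UMIs against 30939, 41616, 33714 and 34512. Irf1 was higher in them in all 4 sections: 200.3 against 175 CPM and 147 against 117 in CC075F1, and 161 against 146 and 162 against 144 in CC080F1. The ratios were 1.15, 1.26, 1.11 and 1.12. Socs1 had ratios of 1.04 and 1.28 in CC075F1 against 0.915 and 1.16 in CC080F1, so it was above 1 in 3 of 4 sections.

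The receptor and kinase genes had ratios on both sides of 1. The ratios were 0.963, 1.06, 1.05 and 1.02 for Ifngr1 and 0.957, 1.12, 0.806 and 1.18 for Ifngr2. For Jak1 they were 0.899, 1.03, 0.985 and 1.05, and for Jak2 0.964, 1.02, 0.839 and 1.09. Irf1 alone of the 6 members other than Ifng was above 1 in all 4 sections, where 15.2% of 8448 genes were and the median ratio was 1.02. The count among the members was thus near the share of all genes. Without CC075F1 section 1 the count was 2 of 6 (Irf1 and Ifngr1), and without CC080F1 section 1 it was 2 of 6 (Irf1 and Socs1). Cxcl9 had ratios of 1.23, 1.69, 1.31 and 1.97. Of the 21 induced genes with a mean of 0.1 UMI or more per thinned spot, 15 were above 1 in all 4 sections. Summed over 26 induced genes, the ratios were 1.02, 1.10, 1.02 and 1.17.

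Neighbours of Ifng spots, within 1 grid step and without an Ifng UMI, were compared with spots farther away in the same manner. They numbered 846 and 1061 in CC075F1 against 229 and 443 in CC080F1. Irf1 had ratios of 1.05, 1.09, 1.06 and 1.04 and Socs1 of 1.02, 1.14, 1.07 and 1.08. Both were thus above 1 in every section, 2 of the 6 members, where 21% of genes were and the median was 1.02. Cxcl9 was at 1.12, 1.38, 1.02 and 1.45, and the 26 induced genes summed were at 1.02, 1.06, 1.00 and 1.08. The ratios of Ifngr1, Ifngr2, Jak1 and Jak2 ran from 0.920 to 1.10.

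Other cell markers moved with the Ifng spots. A T cell marker was present in 82.6%, 87.7%, 48.8% and 48.2% of Ifng spots, against 73.8%, 72.0%, 36.8% and 31.3% of the rest. At equal depth the odds ratios were 1.38, 2.75, 1.69 and 1.94. The summed T cell markers were 1.20, 1.66, 1.27 and 1.96 times as high in Ifng spots, and the summed macrophage markers 0.997, 1.17, 1.08 and 1.09 times. For endothelial markers the ratios were 1.20, 1.25, 1.13 and 1.13, for adipocyte markers 1.13, 1.10, 1.23 and 1.65, for dendritic cell markers 1.02, 1.16, 1.26 and 1.37, and for fibroblast markers 1.00, 1.19, 1.16 and 1.16. With NK and cytotoxic markers the odds ratios were 1.54, 3.27, 0.937 and 2.28. The part of these cell types in the Irf1 and Socs1 ratios was not tested.

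**Figure D2:**
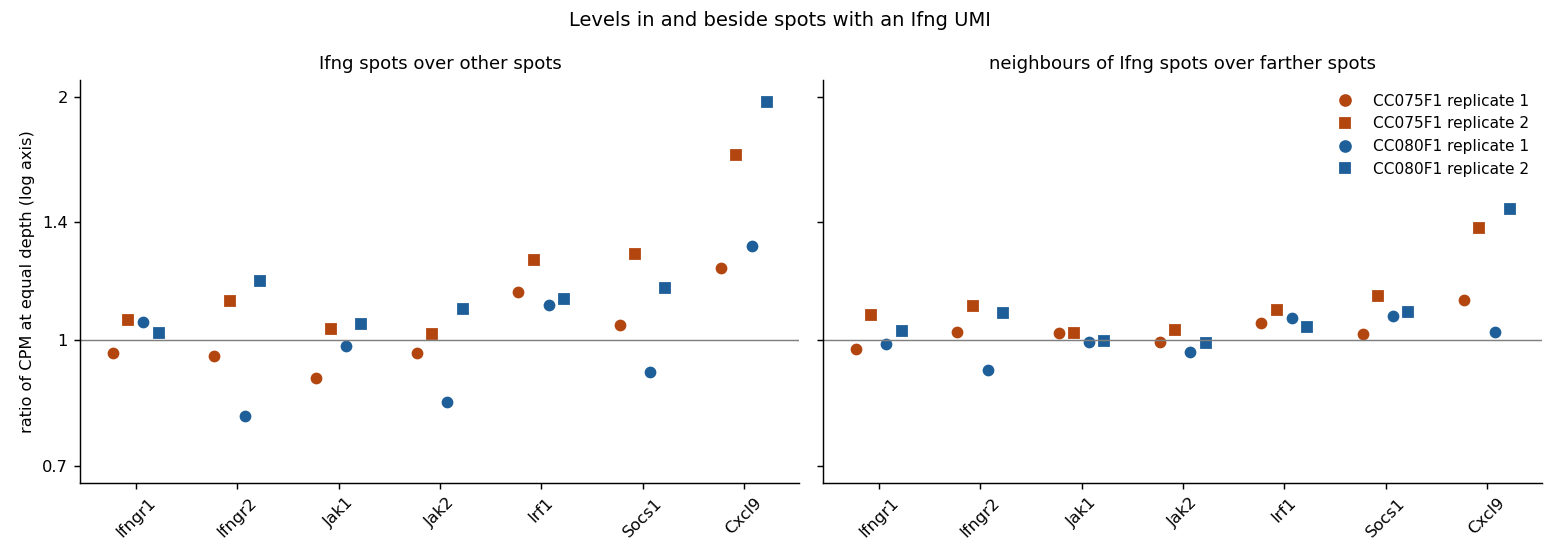
Ratio of CPM at equal spot depth (log axis) for 6 members and Cxcl9, in spots with an Ifng UMI over other spots (left) and in their neighbours over farther spots (right), 1 point per section. Irf1 lies above 1 in all 4 sections in both panels and Socs1 in the right panel, while points of the receptor and kinase genes lie on both sides of 1.

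**Figure D3:**
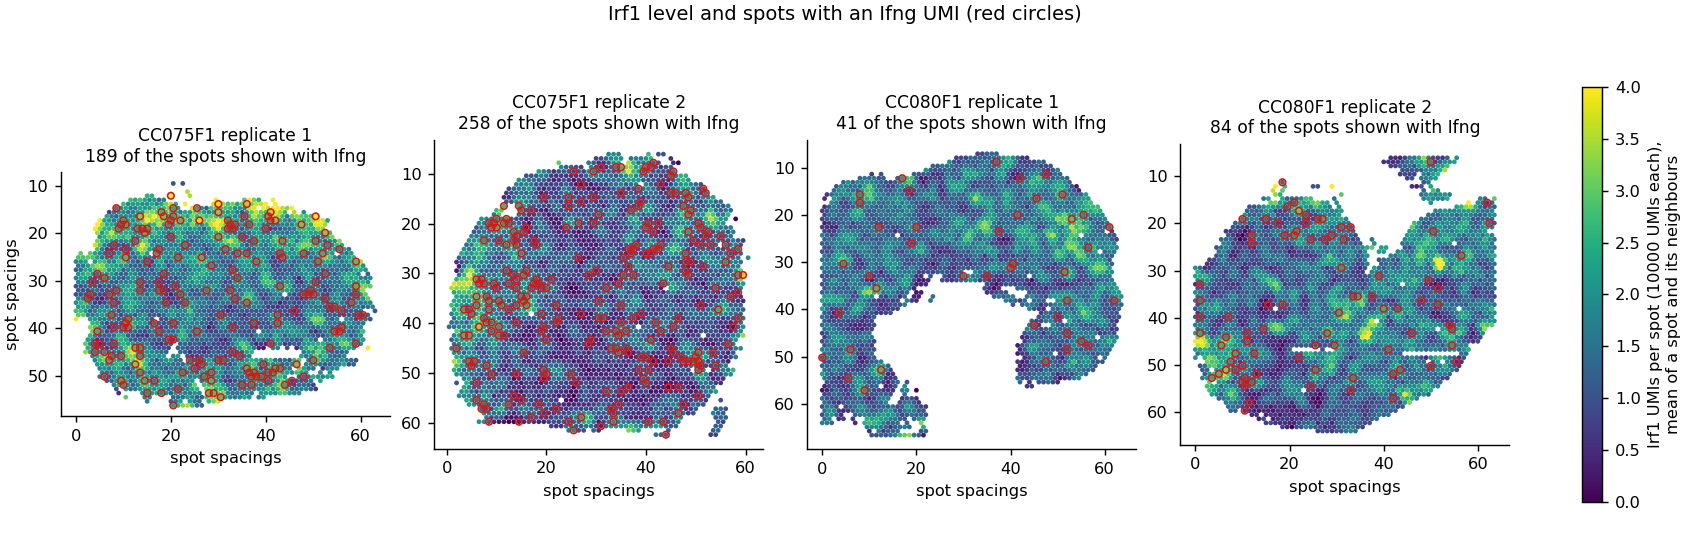
Irf1 UMIs per spot at 10000 UMIs per spot, averaged over a spot and its neighbours (colour), with spots that held an Ifng UMI circled in red, axes in spot spacings, for spots of at least 10000 UMIs. Ifng spots are many in the CC075F1 sections and few in the CC080F1 sections, and patches of high Irf1 occur in all 4.

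Whether the members followed one another across spots was described at equal depth, with each spot thinned to 10000 UMIs and shallower spots left out (161 and 102 in CC075F1, 53 and 205 in CC080F1). Points of a section share its library and tissue, so the correlations carry no p. Over the 21 pairs Pearson's r of log2(UMI + 1) ran from -0.0428 to 0.0995, and the median of the pair means was 0.0126. The pair with the highest mean was Irf1 and Socs1, at 0.0812 and 0.0995 in CC075F1 against 0.0305 and 0.0794 in CC080F1. The receptor pair Ifngr1 and Ifngr2 came next, at 0.0342, 0.0493, 0.0362 and 0.0238. Jak1 and Jak2 did not keep 1 sign, at 0.0403 and -0.0428 in CC075F1 against -0.0112 and 0.00364 in CC080F1. In all, 5 of the 21 pairs were positive in every section, and 8 were when CC075F1 section 1 or CC080F1 section 1 was left out. Members averaged from 0.00366 UMIs per thinned spot (Ifng in CC080F1 section 1) to 1.84 (Irf1 in CC075F1 section 1). Counting noise holds r low in such sparse counts, so small values cannot show that shared variation is absent. The mean r of Irf1 and Socs1 rose with depth, from 0.0352 at 5000 UMIs to 0.0726 at 10000 and 0.0951 at 20000.

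Each spot was then summed with its neighbours, which averages out counting noise but lets neighbouring points share UMIs. The sums were not divided by the number of neighbours present. Spots at the tissue edge or beside left-out spots therefore had a lower summed depth. These correlations are thus not at equal depth, and the part of depth in them was not tested. The range widened to between -0.0462 and 0.299, and 14 of 21 pairs were positive in every section. Irf1 and Socs1 led again, at 0.174 and 0.299 in CC075F1 against 0.167 and 0.202 in CC080F1. Irf1 also went with each receptor and kinase gene, with mean r of 0.167 for Ifngr1, 0.161 for Jak1, 0.124 for Ifngr2 and 0.107 for Jak2. The receptor pair had a mean of 0.160. Ifng went with Irf1 in all 4 sections (mean 0.0654) and with Jak2 in none, where r was negative throughout (-0.0462 to -0.00863).

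Co-detection was read as an odds ratio of presence. With 10 strata of depth, 11 of the 21 pairs had an odds ratio above 1 in every section. Ifngr1 and Irf1 were highest, at 2.03 and 2.21 in CC075F1 against 3.05 and 1.53 in CC080F1. Irf1 and Socs1 were at 1.09, 1.09, 1.23 and 1.74, and with 20 strata at 0.933, 1.03, 1.16 and 1.61. With 20 strata only 3 of the 21 pairs stayed above 1 in every section, so most of these odds ratios depended on how finely depth was matched. Ifngr1 and Irf1 are present in nearly all spots, which leaves few spots without them to set the ratio.

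**Figure D4:**
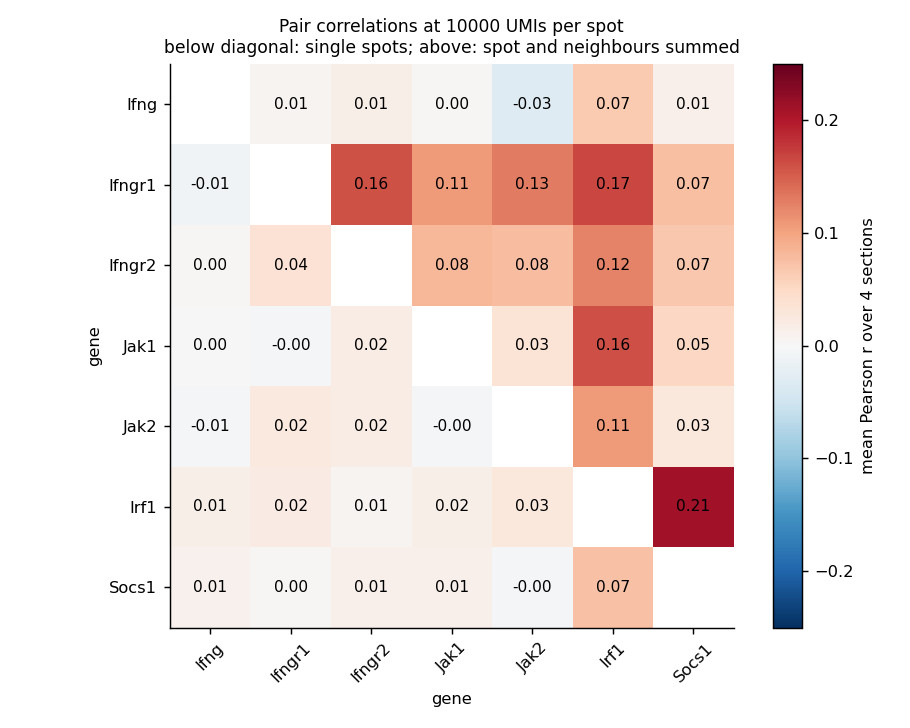
Mean Pearson r over the 4 sections for each pair of members (colour and number) at 10000 UMIs per spot, below the diagonal for single spots and above it for a spot summed with its neighbours. The sums were not divided by the number of neighbours, so summed depth was lower at the tissue edge. Irf1 and Socs1 stand highest on both sides, 0.07 and 0.21.

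Members were also followed along a summed level of IFN-γ-induced genes. In each section the spots, at 10000 UMIs each, were ranked by the sum of the 26 IFN-γ-induced genes, which holds none of the members, and split into quintiles of 509, 634, 546 and 593 spots at the top. This measure was chosen after the data had been seen. The sum was unweighted, and B2m, H2-K1 and H2-D1 made up most of it in every section. They stood at 3166, 2387 and 1760 of 10697 CPM in CC075F1 section 1. In CC080F1 section 1 they stood at 2353, 1457 and 1366 of 7384 CPM. The ranking thus leans mainly on MHC class I RNA. From the lowest to the highest quintile Irf1 went from 161 to 234 and from 92.8 to 181 CPM in CC075F1, and from 117 to 167 and from 114 to 208 in CC080F1. Socs1 went from 29.0 to 44.6 and from 26.6 to 61.8 CPM in CC075F1, and from 27.8 to 38.5 and from 22.7 to 36.9 in CC080F1. Both were higher in the top quintile of every section, with ratios of 1.45, 1.95, 1.42 and 1.83 for Irf1 and 1.54, 2.32, 1.38 and 1.62 for Socs1.

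For receptor and kinase genes the ratios ran from 1.03 to 1.75 and were not tested against those of Irf1 and Socs1. They were 1.10, 1.24, 1.10 and 1.27 for Ifngr1, 1.31, 1.41, 1.03 and 1.75 for Ifngr2, 1.14, 1.54, 1.08 and 1.08 for Jak1, and 1.26, 1.26, 1.27 and 1.45 for Jak2. All 6 members other than Ifng were thus above 1 in every section, where 26.9% of 8427 genes were and the median ratio was 1.06. Ifng went from 1.57 to 3.93 and from 1.26 to 4.26 CPM in CC075F1. In CC080F1 it went from 0.183 to 0.366 and from 0 to 2.19 CPM, and as 3 UMIs in a quintile make 0.548 and 0.505 CPM, no fold is given there.

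The quintiles differed in cell markers as well. Between top and bottom quintile the summed T cell markers had ratios of 1.44, 2.06, 1.66 and 5.72, macrophage markers of 1.21, 1.56, 1.29 and 1.47, and fibroblast markers of 2.14, 3.0, 1.12 and 4.50. The MC38 marker list had ratios of 0.981, 1.23, 0.992 and 0.925. Their part in the members' ratios was not tested. The ranking has no natural step, and 415, 398, 434 and 308 spots lay within 5% of the cut of the top quintile.

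**Figure D5:**
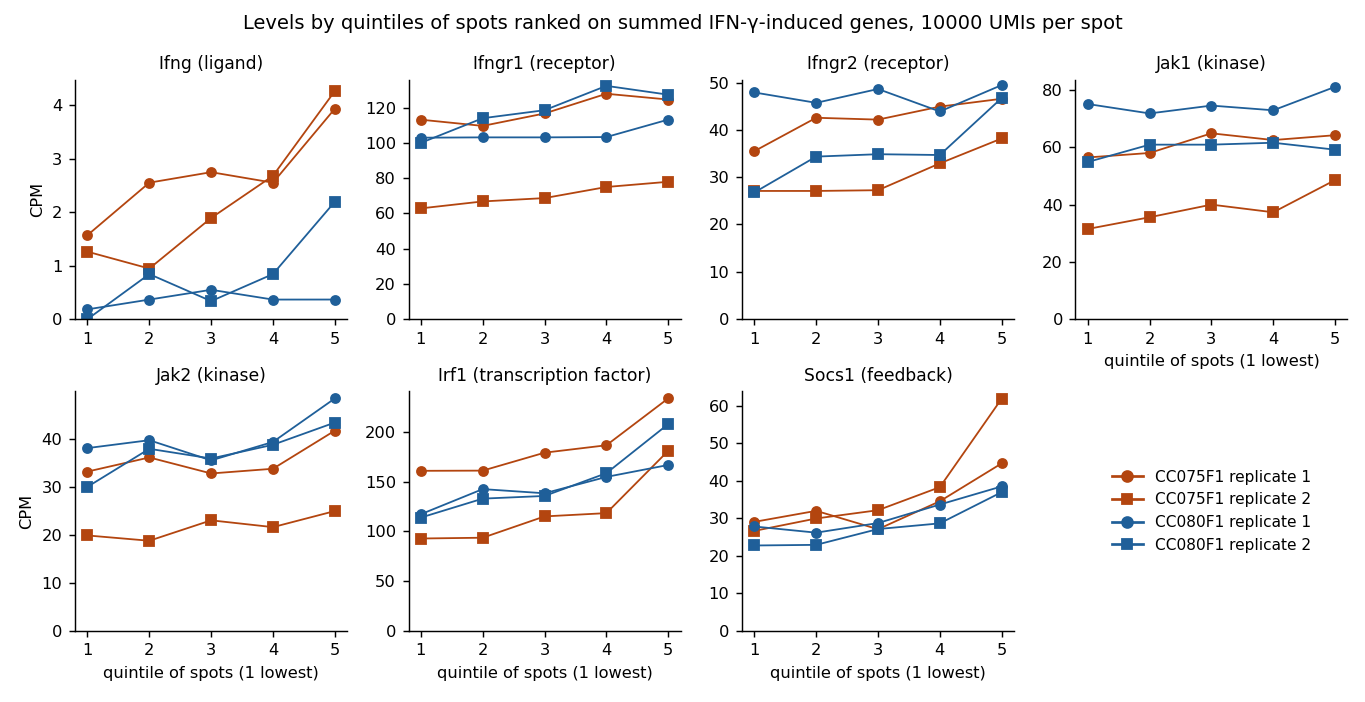
CPM of each member (linear axis from 0) in quintiles of spots ranked within a section by the summed IFN-γ-induced genes, at 10000 UMIs per spot, 1 line per section. Irf1, Socs1, Ifngr2 and Jak2 are highest in the top quintile of all 4 sections. Ifng is highest there in 3 of the 4, and Ifngr1 and Jak1 in only some.

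For each member the genes most like it were taken as those with the highest smallest r over the 4 sections, among 8447 genes. For Irf1 they were Gbp7, Psmb10 and Irgm2, a guanylate-binding protein, an immunoproteasome subunit and an immunity-related GTPase, with a smallest r of 0.0909, 0.0861 and 0.0834. Socs1 ranked 66. For Socs1 they were Cxcl9, the GTPase Igtp and the serpin Serpina3g (0.0839, 0.0703 and 0.0580), and Irf1 ranked 18. These 2 members thus had IFN-γ-induced genes among the 3 most like them, as did Ifngr2 with Psmb10 and Jak2 with Iigp1.

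Ifngr1 was most like the collagen gene Col3a1, the MHC class II gene H2-Aa and the lysozyme gene Lyz2 (0.0796, 0.0624 and 0.0529), and Ifngr2 ranked 54. Ifngr2 was most like the cytokine receptor chain Csf2rb, Lyz2 and Psmb10 (0.0360, 0.0345 and 0.0343), and Ifngr1 ranked 30. Jak1 was most like Sh3glb1, the collagen gene Col6a1 and the chromatin gene Cbx5 (0.0340, 0.0320 and 0.0253). Among the genes most like Jak2 were the GTPase Iigp1 and the acetyltransferase Kat2b (0.0322 and 0.0311). Ifng was present in only 10 of 2734 thinned spots of CC080F1 section 1 and 24 of 2969 of CC080F1 section 2. Its leading genes, Selplg, Ramp2 and Msantd4, reached only 0.0305, 0.0303 and 0.0295, and Cxcl9 ranked 4. These values are low throughout, and neighbouring ranks are not distinguished.

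Irf1 was the member with the highest spatial clustering in every section. It also had the most UMIs per thinned spot, with means of 1.20 to 1.84, before Ifngr1 at 0.702 to 1.18. Clustering was not compared at matched abundance. Moran's I, the similarity of a spot to its 6 neighbours at 10000 UMIs, was 0.0542 and 0.113 for Irf1 in CC075F1 against 0.0567 and 0.0702 in CC080F1, and 4.49% to 7.77% of 8448 genes were higher. The median gene lay between 0.00839 and 0.0115. Ifngr1 had the next highest mean, at 0.0369, 0.0526, 0.0284 and 0.0566. Socs1 was at 0.0197, 0.0531, -0.00147 and 0.0180, and in CC080F1 section 1 it was thus no more clustered than the median gene.

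Over the 4 sections the remaining members ranged lower, Jak1 from -0.00125 to 0.0309, Jak2 from -0.00284 to 0.0184, Ifngr2 from -0.00271 to 0.0141 and Ifng from -0.00776 to 0.00916. Cxcl9, from 0.204 to 0.433, was more clustered than any member in every section. The value depends on depth: the mean of Irf1 was 0.0439 at 5000 UMIs per spot, 0.0736 at 10000 and 0.127 at 20000. The Fano factor, the variance of UMIs over their mean, was 1.18, 1.20, 1.12 and 1.25 for Irf1, and Ifng reached 1.49 in CC075F1 section 2 but lay between 0.996 and 1.07 in the others. For the median gene it was near 1.02.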

How the data were processed

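Spatial RNA was measured on Visium slides from fresh frozen tumors, 1 section from each of 4 tumors. The authors deposited UMI counts per gene and spot with the spot positions, made with Space Ranger 1.3.1 (per the matrix header) on mm10 (GRCm38); Seurat 5.0.1 is named in the submitters' processing notes. The study's methods describe the 4 tissue blocks as sectioned onto a Visium slide and the libraries as pooled for sequencing, and no label gives a batch for a section. Groups came from sample titles. The 7 members and all gene lists were chosen with earlier results of these data known, so no list carries a set test or a p of its own.

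Counts were summed per section and tested across strains with edgeR 4.0.16 (quasi-likelihood, TMM factors, filterByExpr, Benjamini-Hochberg over 15572 genes, adjusted p threshold 0.05), in R 4.3.3. DESeq2 1.42.0 and limma-voom (limma 3.58.1) were alternatives, beside other scalings, no filter, leaving out each section, interior spots and thinned spots. The study's shuffling of spots was not used, since spots of a section are not replicates. The p-values measure the spread between sections. Exact (Clopper-Pearson) intervals and floors of 3 UMIs cover counting error only. Total UMIs per section were 82594649 to 146460975. Equal depth was reached by drawing 10000 UMIs from each spot without replacement, or by strata of spot depth. The genes that members were set against in spot measures had a mean of 0.1 UMI or more per thinned spot. Ifng lay below this and was kept as a member, and summed lists were not filtered. The spot with 0 UMIs was left out.

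Named genes were the members; of each list every gene called by edgeR and the 3 with the highest mean CPM; Cxcl9 and Gbp2; and for each member the 3 most like it. Ebi3 was named after its values were seen. Cxcl11 was not used here, and 1 gene that the rule names is not reported here. Replicate sections shared numbers, which the labels do not tie to a litter or day. The scripts were tested on simulated counts.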

Additional observations from a re-analysis of the deposited data

Results flagged for a closer look

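Of 54 ratios, odds ratios and correlations looked at, 4 went in opposite directions in all sections of the 2 strains. With 2 sections per strain, signs that vary at random can also give this pattern, and how often was not computed. Jak2 with Socs1 enters by both of its measures, and its correlation in CC080F1 section 2 was nearly 0. Jak1 beside Ifng spots stood at 1.02 and 1.02 of its level farther away in CC075F1 against 0.995 and 0.997 in CC080F1, a difference of 0.0246 (exact permutation p = 0.3333, the smallest possible). The correlation of Ifngr1 with Socs1 at 10000 UMIs per spot was -0.0226 and -0.00208 in CC075F1 against 0.0155 and 0.0189 in CC080F1, a difference of -0.0295. For Jak2 with Socs1 the correlation was 0.00376 and 0.00407 against -0.0256 and -4.15e-05, a difference of 0.0168. The odds ratio of Jak2 and Socs1 was 1.20 and 1.26 against 0.931 and 0.951, a difference of 0.286. These 3 pair differences were not tested.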

How the results depend on the processing

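Of 332 recomputed values, 293 were unchanged by rules that differ with the kind of value. Log2 differences had to keep their direction and side of the threshold, and ratios of strains only their side of 1. Counts had to stay near the main count, and other values within the spread between sections. Of the rest, 20 moved, 10 reversed direction and 9 log2 differences became called. The 14 genes called became 40 with library size alone, 480 without the filter on low counts, 194 with DESeq2's Wald test, 287 with the replicate number as a block and 11 to 207 when 1 section was left out; the cause was not tested. The replicate numbers are not tied to a shared origin (deviations of same-numbered sections correlated at 0.165 over genes), and the block called Ifng (2.13, adjusted p = 0.00918) and no other member. For Ifngr1 and Ifngr2 the log2 difference was -0.24 and -0.25 under library size alone and ran from -0.15 to 0.18 and from -0.036 to 0.14 without single sections. The ratio of strains in share of spots ran over leave-one-out from 0.905 to 1.01 for Ifngr2, 0.995 to 1.01 for Irf1 and 0.995 to 1.21 for Socs1, and was 0.981 for Irf1 at 20000 UMIs. Pairs with an odds ratio above 1 in every section fell from 11 to 3 with 20 strata and were 12 to 13 without single sections. Pairs correlated above 0 in every section numbered 2 at 5000 UMIs, 10 at 20000, 14 with neighbours summed and 6 to 8 without 1 section. The mean r of Irf1 and Socs1 was 0.0352 at 5000 UMIs and 0.211 with neighbours summed, and Moran's I of Irf1 was 0.0439 at 5000 and 0.127 at 20000 UMIs. Members above 1 in Ifng spots in every section numbered 1 to 2 when 1 section was left out. Depth limits Ifng most, with 46 UMIs in CC080F1 section 1, and 2 sections per strain limit every comparison.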
